A study of Mus musculus with 2 samples.

Results

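The genes of the cytosolic ribosomal proteins were compared between 2 liver libraries, 1 of wild-type mice (WT) and 1 of GBP5-/- mice (KO), which lack Gbp5. The product of Gbp5 is a guanylate-binding protein, a GTPase induced by interferon. Members were the protein-coding genes whose symbol starts with Rpl or Rps followed by a digit, an a or a p, leaving out the S6 kinases (Rps6k), pseudogene symbols and symbols ending in l1. This rule found 84 of the 52403 genes that the files share with the annotation, 50 named for the large and 34 for the small subunit. It takes in Rps19bp1, which encodes a binding partner of the Rps19 product and no ribosomal protein, and it leaves out genes such as Fau and Rack1, which encode ribosomal proteins under other names. All mice were C57BL/6 and 9 weeks old. Both groups received D-galactosamine (GalN) at 800 µg and lipopolysaccharide (LPS, a bacterial endotoxin) at 100 ng per g body weight, and livers were taken after 6 h. Each library holds the pooled RNA of 4 livers of its genotype, and each genotype has 1 library, so there is no spread between animals, no replicate check and no p-value for any difference. No untreated liver was analysed here. Intervals below are exact 95% counting intervals, which cover counting error only. They compare the pair of libraries and say nothing of variation within a genotype, and sequenced reads may be copies of the same molecule.

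A ribosome is built from a small subunit, which reads the messenger RNA, and a large subunit, which joins amino acids and releases the chain through an exit tunnel. Each subunit holds ribosomal RNA and a fixed set of proteins, nearly all present in a single copy, so cells keep the messenger RNAs of these proteins at high and matched levels. In vertebrates these messengers begin with a terminal oligopyrimidine tract, a C followed by a run of C and T bases. Through this tract the kinase complex mTORC1 and the RNA-binding protein LARP1 control their translation and stability. Hepatocytes, which secrete most plasma proteins, are rich in ribosomes.

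The start sites are shown because the pyrimidine tract is the sequence feature these genes are known to share. Each run below is 30 bases of the RefSeq promoter table (GRCm38.p6), 15 before the annotated start and 15 from it on, printed 5′ to 3′. Capitals mark the longest run of 5 or more C or T bases that begins within 10 bases of the annotated start. The genes are a gene of the exit tunnel with a long tract (Rpl35), a stalk gene on the higher side in KO and one on the lower side (Rplp2, Rpl12), the most abundant small subunit gene (Rps2), the target of the S6 kinases (Rps6), the large subunit gene with the highest ratio of KO to WT (Rpl38) and the Rps27 family.
Rpl35, chr2:39005117-39005146, minus strand: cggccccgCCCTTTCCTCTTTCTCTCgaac
Rplp2, chr7:141447636-141447665, plus strand: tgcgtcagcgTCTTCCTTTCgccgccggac
Rpl12, chr2:32961697-32961726, plus strand: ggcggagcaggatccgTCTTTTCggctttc
Rps2, chr17:24720048-24720077, plus strand: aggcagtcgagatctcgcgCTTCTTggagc
Rps6, chr4:86857353-86857382, minus strand: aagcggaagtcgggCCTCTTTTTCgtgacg
Rpl38, chr11:114668565-114668594, plus strand: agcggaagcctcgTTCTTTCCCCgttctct
Rps27, chr3:90213634-90213663, minus strand: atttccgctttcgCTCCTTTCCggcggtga
Rps27l, chr9:66946071-66946100, plus strand: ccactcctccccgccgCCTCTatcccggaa
Rps27rt, chr9:114982725-114982754, minus strand: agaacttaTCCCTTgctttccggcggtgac
The longest run was 18 bases in Rpl35, 10 in Rplp2, Rps6 and Rpl38, 9 in Rps27, 7 in Rpl12, 6 in Rps2 and Rps27rt, and 5 in Rps27l. In Rps27rt a second run of the same length begins at the annotated start and is not capitalised. The table held 76 starts of 64 members. Runs that begin more than 10 bases before a start were not counted, even where they cross it, as in Rpl7a and Rpl34. A run of 7 or more was found at 26 of these starts (34.2%), against 14.4% of all 32851 starts in the table and 14.0% of the starts of measured protein-coding genes. Runs of 5 or more were found at 53.9% of the members' starts and 38.0% of all. The motif CCGGAAG, on either strand of the 300-base window, was found at 35.5% of the members' starts, 8.86% of all starts and 16.5% of those of measured protein-coding genes. AAGATGG, on either strand, was found at 14.5% and 6.34%. TATAAA beginning 40 to 20 bases before the start was found at 0 of the 76 starts and at 1.99% of all. These are letters in the window and not tested sites.

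The WT library held 19864848 reads on genes and the KO library 15750875, so 3 reads, the limit a count of 0 allows, are 0.151 and 0.190 counts per 1e+06 reads (CPM). Gbp5 had 3211 WT reads and 873 KO reads, 2.92-fold lower in KO as CPM (interval 2.71 to 3.15), in the direction of the labels. Hepatocyte markers were abundant in both libraries, with a summed level of 65035 CPM in WT and 101421 in KO, and 7 of 8 had a higher value in KO. Alb alone held 38384 CPM of the WT sum and 69250 of the KO sum, so these sums mostly follow 1 gene. Kupffer cell and macrophage markers summed to 1423 and 567 CPM, lower for all 10. T and NK cell markers summed to 66.5 and 30.2 CPM, B cell markers to 18.3 and 12.6, neutrophil markers to 402 and 320, endothelial markers to 569 and 450, stellate cell markers to 806 and 760, cholangiocyte markers to 143 and 204 and erythroid markers to 3728 and 5326. Among markers at a mean of 1 CPM or more, 0 of 8 T and NK cell and 1 of 5 B cell markers were higher in KO. So were 3 of 6 neutrophil, 1 of 6 endothelial, 2 of 6 stellate cell, 4 of 5 cholangiocyte and 5 of 5 erythroid markers. Pancreatic acinar markers summed to 26.6 and 40.3 CPM. Of these 8 markers Cpa1, Cpb1 and Pnlip were at 0 reads in both libraries, Ctrb1 had 0 reads in WT and 297 in KO, and Cela1 had 521 and 328. The part of these cell types in the values below was not tested. In bulk RNA, fewer cells of a type and less RNA per cell cannot be told apart.

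Ribosomal protein genes held almost the same share of both libraries, 2.24% of reads in WT and 2.30% in KO. Large subunit genes summed to 12160 CPM in WT and 12567 in KO, which is a KO to WT ratio of 1.03 (interval 1.03 to 1.04). Small subunit genes summed to 10280 and 10467 CPM, a ratio of 1.02 (1.01 to 1.02). The small subunit share of all ribosomal protein reads was 45.8% in WT (45.7% to 46.0%) and 45.4% in KO (45.3% to 45.6%). Single abundant genes moved these sums: without Rps2 the small subunit ratio was 1.06, and without Rpl13 the large subunit ratio was 1.05.

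Gene by gene, most members lay slightly above 0. Of the 84 members 80 reached a mean of 1 CPM over both libraries, 46 large and 34 small subunit genes, and all 80 were above 1 CPM in each library. The other 4 were Rpl3l, Rpl10l, Rpl39l and Rpl24. The difference is log2((KO CPM + 0.5)/(WT CPM + 0.5)), which understates differences of low genes. It was above 0 for 54 of the 80 members and below 0 for 26. The median was 0.12 over all measured members, 0.09 over large subunit genes (29 of 46 above 0) and 0.19 over small subunit genes (25 of 34 above 0). Over all 13446 measured genes the median was -0.06, with 45.5% above 0, and over the 1418 genes at a mean of 100 CPM or more it was 0.01, with 51.0% above 0.

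The members were narrowly spread beside all measured genes. Differences ran from -0.80 for Rps27a to 0.68 for Rps27rt, and 60 of the 80 stayed within 1.25-fold of equal levels. The middle 50% of members lay between -0.07 and 0.27, against -0.53 to 0.28 for all measured genes. For genes at a mean of 100 CPM or more it was -0.39 to 0.26. Other families of many subunits were as narrow or narrower. The middle 50% was 0.17 to 0.42 for respiratory chain, 0.08 to 0.36 for proteasome and 0.06 to 0.39 for mitochondrial ribosomal genes. Only Rps27rt was 1.5-fold or more higher in KO among the 80 measured members, where 9.11% of all measured genes were. Only Rps27a was 1.5-fold or more lower, where 22.6% of all measured genes were. No measured member reached 2-fold higher, against 2.38% of all genes, or 2-fold lower, against 10%. Of the 1418 genes at a mean of 100 CPM or more, 71 were 1.5-fold or more higher and 259 lower. At 2-fold these counts were 8 and 127.

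**Figure D1:**
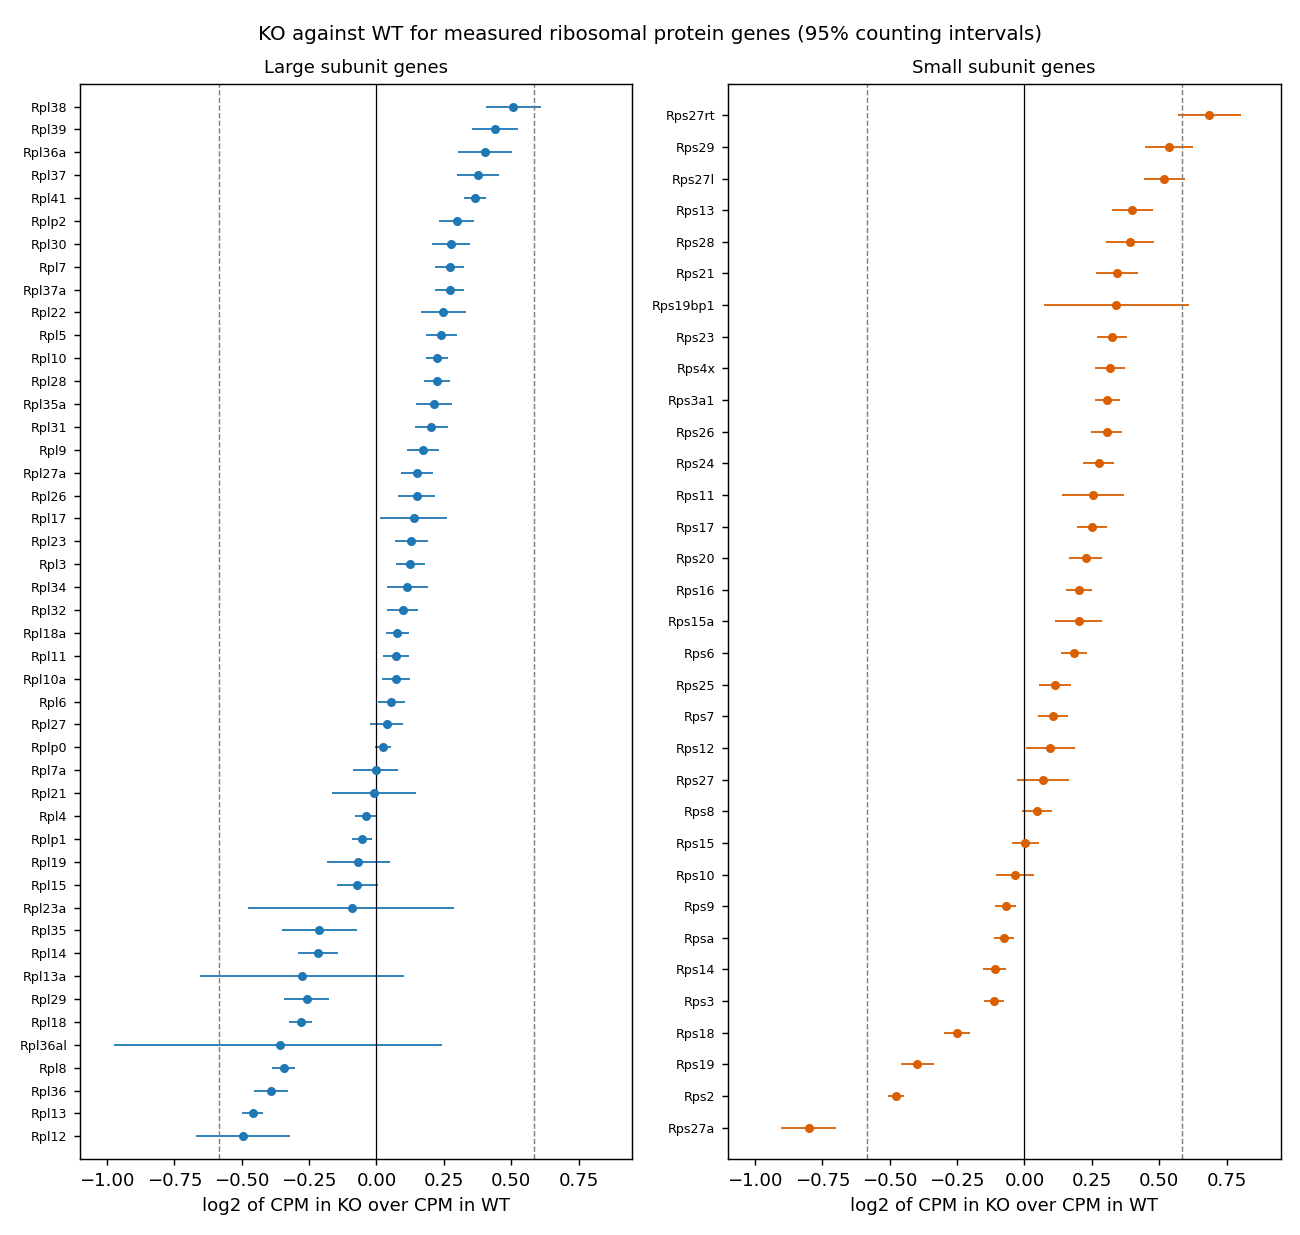
Log2 of the ratio of CPM in KO to CPM in WT (x axis) for the measured members (1 small subunit gene is not shown), large subunit genes on the left and small subunit genes on the right, ordered by the ratio. Points are single libraries' ratios, bars are 95% counting intervals and dashed lines mark 1.5-fold; Rps27a at the bottom and Rps27rt at the top of the small subunit panel are the members whose points lie outside them.

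Among large subunit genes, the ribosomal stalk recruits the translation factors that hydrolyse GTP. Rplp0, the base of the stalk, had 976 CPM in WT and 993 in KO, and the ratio of 1.02 had an interval of 0.997 to 1.04. Rplp1, an acidic protein of the stalk's arm, had 634 and 611 CPM and was 1.04-fold lower (1.01 to 1.07). Its partner Rplp2 had 187 and 229 CPM and was 1.23-fold higher (1.17 to 1.29). Rpl12, which binds beside Rplp0, had 37.9 and 26.9 CPM and had the lowest ratio of the measured large subunit genes, 1.41-fold lower (1.25 to 1.59). The 4 stalk genes therefore lay on both sides of 0, with a list median of -0.01.

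Rpl5 and Rpl11 bind the 5S ribosomal RNA and, when not built into ribosomes, also bind the p53 inhibitor MDM2. Rpl5 had 251 CPM in WT and 296 in KO, 1.18-fold higher (1.13 to 1.23). Rpl11 had 388 and 409 CPM, 1.05-fold higher (1.02 to 1.09). Both were on the higher side as counted, by less than the spread among members. The GC and length step subtracts the median difference of protein-coding genes in the same bin of GC content and length, with broad bins of length. After it Rpl5 was at 0.02 and Rpl11 at 0.01 on the log2 scale.

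The proteins around the mouth of the exit tunnel, where the growing chain meets targeting factors and chaperones, lay above 0 for 5 of 8 genes (62.5%), near the 67.5% of all measured members. After the GC and length step 4 were above and 4 below 0, with Rpl31 at -0.05 and Rpl17 at -0.12. Rpl39, a short protein that lines the tunnel, had 109 CPM in WT and 148 in KO, 1.36-fold higher (1.28 to 1.44). Rpl22 was 1.19-fold higher, Rpl31 1.15-fold, Rpl26 1.11-fold and Rpl17 1.10-fold (1.01 to 1.20). Rpl35 had 52.4 and 45.3 CPM and was 1.16-fold lower (1.05 to 1.28). Rpl19 and Rpl23a, the docking site of the signal recognition particle, had intervals that included equal levels, 0.966 to 1.14 and 0.818 to 1.39 as folds lower in KO.

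The highest ratios among large subunit genes were those of Rpl38, Rpl39, Rpl36a and Rpl37. Rpl38, needed in mouse embryos for translation of Hox messengers, had 75.5 CPM in WT and 107 in KO, 1.42-fold higher (1.33 to 1.53). Rpl36a had 78.1 and 103 CPM, 1.32-fold higher (1.23 to 1.42), and the zinc-binding protein gene Rpl37 had 131 and 170 CPM, 1.30-fold higher (1.23 to 1.37). Rpl41, which encodes the shortest ribosomal protein, had 452 and 582 CPM and was 1.29-fold higher (1.25 to 1.33). After the GC and length step Rpl39 was at 0.25, Rpl36a at 0.15 and Rpl37 at 0.11, whereas Rpl38 was at 0.999 and Rpl41 at 0.35.

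On the lower side, after Rpl12, stood Rpl13, Rpl36, Rpl36al and Rpl8. Rpl13 had 710 CPM in WT and 516 in KO, 1.37-fold lower (1.34 to 1.41). Rpl36 had 269 and 205 CPM, 1.31-fold lower (1.26 to 1.37). Rpl8, whose product lies near the site of peptide bond formation, had 593 and 467 CPM, 1.27-fold lower (1.23 to 1.31). Rpl36al had 63 and 39 reads and an interval that included equal levels, 0.846 to 1.96 as a fold lower. Rpl13a, which in human monocytes also silences inflammatory messengers, had 151 and 99 reads, and its interval too included equal levels.

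Among small subunit genes, those at the messenger channel and the decoding site differed from each other. Rps2, at the entry of the channel, was the most abundant member by reads in WT, with 1367 CPM in WT and 983 in KO, 1.39-fold lower (1.36 to 1.42). Rps3, at the same entry, had 653 and 604 CPM, 1.08-fold lower (1.05 to 1.11). Rps15, near the decoding site, had 368 and 369 CPM (interval of the ratio 0.968 to 1.04). Rps23, which reaches into the decoding site, had 265 and 332 CPM, 1.25-fold higher (1.21 to 1.30).

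Rps27a had the lowest ratio of the measured small subunit genes as counted. With the reads of its matched pseudogenes added its log2 difference was -0.24 and no longer past 1.5-fold, behind Rps2 at -0.53. Rps27a encodes ubiquitin joined to a small subunit protein and had 2494 WT reads and 1136 KO reads, which are 126 and 72.1 CPM. It was 1.74-fold lower in KO (1.62 to 1.87). Fau, a fusion of a ubiquitin-like protein with a small subunit protein that the naming rule leaves out, had 458 and 385 CPM and was 1.19-fold lower (1.15 to 1.23), but was at 0.25 on the log2 scale after the GC and length step. Rack1, a signalling scaffold on the small subunit, had 526 and 572 CPM and was 1.09-fold higher.

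Other small subunit genes, some with known further roles, lay on both sides of equal levels. Rps6, the target of the S6 kinases, had 379 CPM in WT and 431 in KO, 1.14-fold higher (1.10 to 1.17). Rpsa, also known as a laminin receptor, had 744 and 706 CPM, 1.05-fold lower (1.03 to 1.08). Rps19, mutated in human Diamond-Blackfan anaemia, had 294 and 223 CPM, 1.32-fold lower (1.26 to 1.37). Rps18 in the head of the subunit had 442 and 372 CPM, 1.19-fold lower. Upward, the zinc-binding protein gene Rps29 had 98.8 and 143 CPM, 1.45-fold higher (1.36 to 1.54), and Rps13 had 139 and 184 CPM, 1.32-fold higher (1.25 to 1.39).

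Several members have paralogues, some of which can take the same place in the ribosome. Rpl3l (mainly a muscle form), Rpl10l and Rpl39l (mainly testis forms) were at or near the limit of detection. Rpl3l had 3 reads in WT and 0 in KO, Rpl39l 7 and 1, and Rpl10l 0 in both, whereas Rpl3 had 6327 and 5475, Rpl10 9966 and 9234, and Rpl39 2171 and 2337. Rpl3 was 1.09-fold and Rpl10 1.17-fold higher in KO. Rpl22l1 and Rpl7l1, which the rule leaves out, had 12.2 and 42.3 CPM in WT and were 1.24-fold and 1.30-fold higher, beside 1.19-fold for Rpl22 and 1.21-fold for Rpl7. After the GC and length step Rpl22l1 was at -0.001, Rpl7 at 0.02 and Rpl10 at -0.04. Rpl3 was at 0.08, Rpl22 at 0.20 and Rpl7l1 at 0.32.

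The Rps27 family is shown in sequence because its members' values depend on how alike they are. Each run is the first 60 coding bases of the principal transcript in GENCODE M21 (GRCm38), and capitals mark bases that differ from Rps27. Rps27 lies on chromosome 3 (90212522 to 90213651, minus strand), and the other genes on chromosome 9: Rps27rt at 114982366 to 114982739, minus strand, and Rps27l at 66946086 to 66949516, plus strand.
Rps27: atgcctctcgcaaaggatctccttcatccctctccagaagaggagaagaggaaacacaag
Rps27rt: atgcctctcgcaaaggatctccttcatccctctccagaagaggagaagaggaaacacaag
Rps27l: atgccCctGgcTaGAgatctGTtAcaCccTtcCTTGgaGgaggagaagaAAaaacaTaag
All 252 coding bases of Rps27rt, a retrogene, were the same as those of Rps27, while Rps27l differed at 60 of them, 18 within the printed stretch. Rps27 had 1879 WT reads and 1563 KO reads, a CPM ratio of 1.05 (0.980 to 1.12). Rps27rt counted 1077 and 1374 reads, the highest ratio of the measured members at 1.61 (1.48 to 1.74). Of the 50-base windows of the Rps27 messenger, 98.6% also occurred in Rps27rt, so the split of reads between this pair is uncertain. Their reads together were 2956 and 2937, a ratio of 1.25 (1.19 to 1.32). Rps27l, a target gene of p53, shared 0 windows with either and had 132 and 189 CPM, 1.43-fold higher (1.36 to 1.51).

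Per length of the principal messenger, the members spanned a wide range of levels. Levels between genes are given as reads per kilobase of the principal messenger per 1e+06 reads (RPKM). The chosen messenger was long for some members: 5179 bases for Rps15a, 3706 for Rps20 and 2989 for Rpl18, against a median of 836.5. Their WT values of 22.5, 59.6 and 191 RPKM depend on that choice, and so does part of the range. The same lengths set the bins of the GC and length step. The most abundant large subunit genes were Rplp1 with 1271 RPKM in WT and 1224 in KO, Rpl41 with 776 and 1000, and Rpl13 with 910 and 662. The most abundant small subunit genes were Rps2 with 1250 and 898, Rps9 with 843 and 804, and Rps15 with 736 and 737. The median member had 254 RPKM in WT and 295 in KO. The order of members was nearly the same in both libraries, with Spearman's rho of 0.98 between both sets of CPM over 80 genes, which share libraries and gene lengths and are not independent.

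**Figure D2:**
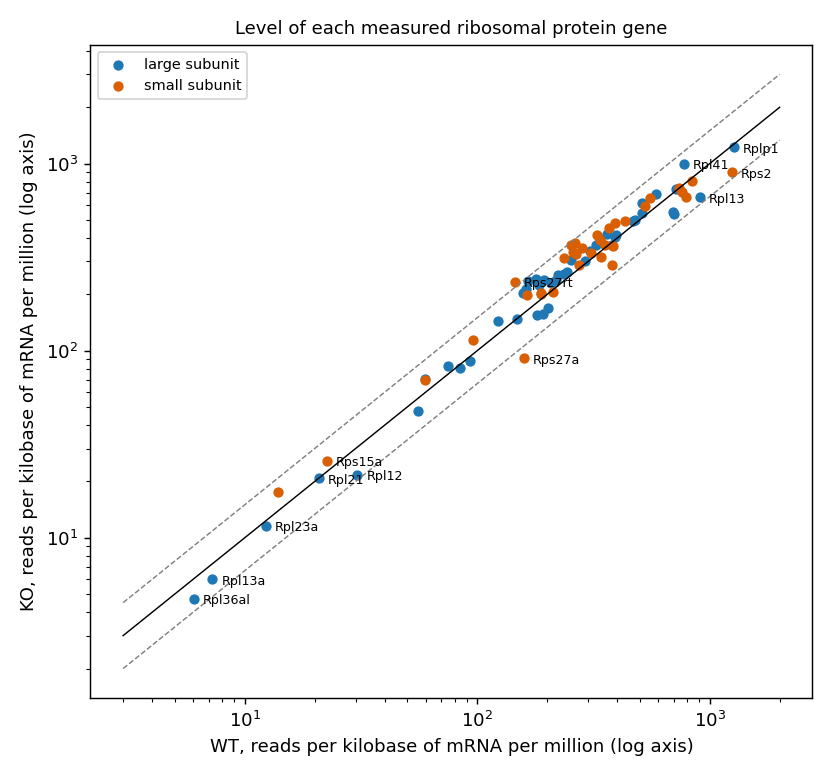
Level of each measured member in WT (x axis) and KO (y axis), in RPKM, both on log axes; the solid line marks equal levels and dashed lines 1.5-fold. Points are single libraries and follow the line from Rpl36al, at 6.03 and 4.71, to Rplp1, at 1271 and 1224; Rps27a lies below the lower dashed line.

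Several members with few reads lie within the exons of other genes. Of 4 members whose messenger lies for 50% or more in exons of another gene on the same strand, 3 were among the 7 members under 10 CPM, the others being Rpl23a, Rpl3l, Rpl10l and Rpl39l. Rpl24 had 9 reads in WT and 5 in KO, and 71.5% of its messenger lies in exons of Gm28037, which itself had 0 reads. Rpl13a, at 59.3% within Gm45713 (0 reads), had 7.60 and 6.29 CPM, and Rpl36al, at 63.1%, had 3.17 and 2.48. Rps10, at 53.6%, had 187 and 183 CPM. Rpl23a, with 137 and 102 reads, overlaps no gene on its own strand, but 55.4% of its messenger lies in exons on either strand of Tlcd1. The counting mode for reads that fall in several genes is not given in the sources used here, so these low counts are not read as low expression.

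**Figure D3:**
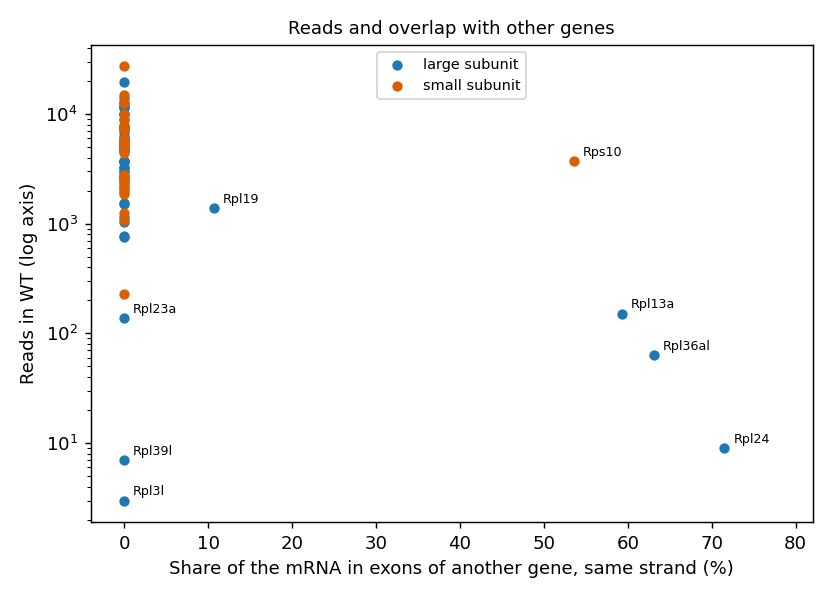
Share of the principal messenger that lies in exons of another gene on the same strand (x axis, percent) against reads in WT (y axis, log axis) for members with 1 or more reads. Rpl24, Rpl36al and Rpl13a combine a share above 50% with fewer than 200 reads, whereas Rps10 has 3724.

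Processed pseudogenes, which are copies of messengers put back into the genome, carry near-identical sequence. In 80 of 84 members at least 1 of the 50-base windows occurred in a transcript of another gene, and the median member had 48.9% unique windows. Rpl8 and Rps3 were largely unique, at 92.1% and 97.0%. The 41 members with 50% or more unique windows gave a median difference of 0.16 over 38 measured genes, and the 43 with fewer gave 0.10 over 42. A search matched 1013 annotated processed pseudogenes to 79 members. The pseudogenes held 61978 reads in WT and 46442 in KO (3120 and 2949 CPM, ratio 0.945, interval 0.934 to 0.957). For some members they held more WT reads than the gene: 5924 against 1153 for Rpl17, 1982 against 770 for Rpl21, 1866 against 137 for Rpl23a and 205 against 9 for Rpl24. With these reads added the ratio of Rpl17 was 1.12 in place of 1.10. That of Rpl23a changed side, to 1.13 (1.06 to 1.20) in place of 0.939.

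For 2 of the lowest members the copies did not all move with the gene. Rps27a-ps2, which matched Rps27a at 99.8% of its 467 aligned bases, had 312 WT reads and 688 KO reads, 2.78-fold higher (2.43 to 3.19), opposite to Rps27a. With the reads of its 15 matched pseudogenes added, Rps27a reached 2981 and 2002 reads, and its ratio was 0.847 (0.800 to 0.897) in place of 0.574. Among the 58 pseudogenes matched to Rps2, Gm6311 had 1472 reads in WT but 56 in KO, and its CPM ratio was 0.0480 (0.0361 to 0.0627), while Rps2-ps13 had 1388 and 823, a ratio of 0.748. Gm12922 had 400 and 445 reads, 1.40-fold higher (1.22 to 1.61), opposite to Rps2. With all 58 added, Rps2 had 32924 and 18039 reads, a ratio of 0.691. The split of reads between a gene and such copies is uncertain, so the size for Rps27a is too.

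Members with a higher GC content tended to have a lower ratio of KO to WT, as all genes did. Over the 80 measured members Spearman's rho between difference and GC content of the messenger was -0.38, and over 12266 measured protein-coding genes it was -0.48. Genes are not independent replicates and share both libraries. The 27 members lowest in GC had a median of 0.24, beside 0.13 for all 4448 protein-coding genes in the same range of GC. The 26 in the middle had 0.07, beside -0.07. The 27 highest in GC had 0.00, beside -0.44 for all 3983 genes in their range. Members high in GC thus lay further above genes of like GC than members low in GC did. These genes were matched in GC only. In the highest range their median length was 2528 bases, against 751 for the members. After the GC and length step the medians of the lowest, middle and highest members were 0.02, 0.01 and 0.06, so most of this gap was gone.

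**Figure D4:**
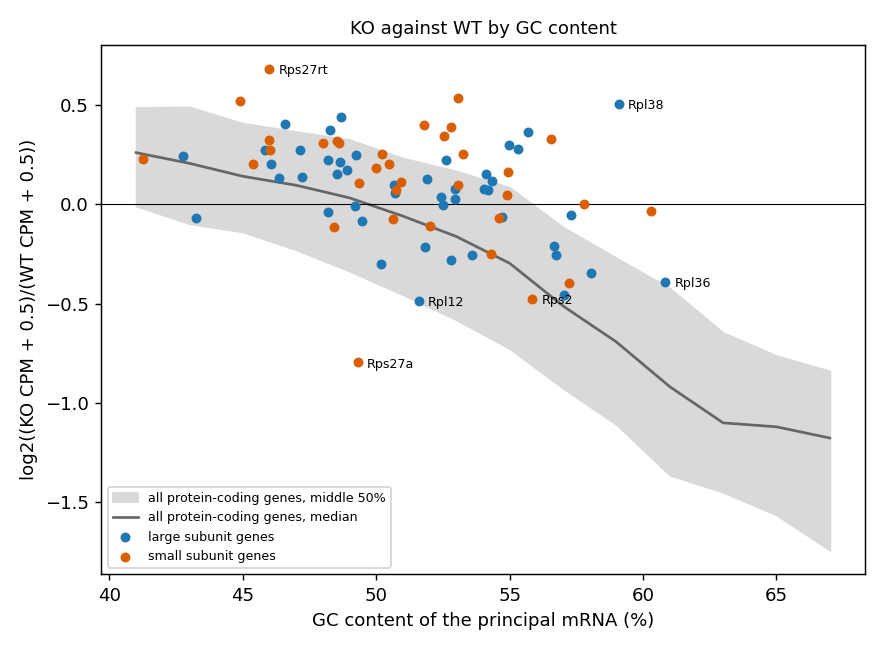
GC content of the principal messenger (x axis, percent) against the log2 difference of KO and WT (y axis). Blue and orange points are large and small subunit genes, the grey line and band are the median and the middle 50% of all measured protein-coding genes in steps of GC; most members above 55% GC lie above the grey line, and Rps27a lies below the band.

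After subtraction of the median of protein-coding genes in bins of GC content and length, the members lay close to 0. Their median was 0.02, with 48 above and 32 below 0, at 0.01 for large and 0.05 for small subunit genes. Of the 80 members 16 changed side, among them Rplp0, Rplp1, Rpl35, Rpl36, Rpl10 and Rps6. Rps27a was at -0.99, Rps2 at -0.49 and Rpl12 at -0.53, whereas Rpl13 moved to -0.24, Rps19 to -0.18, Rpl8 to -0.12 and Rpl36 to 0.10. Rpl38, at 59.1% GC, moved to 0.999 and Rps27rt to 0.43, so that after this step Rpl38 and not Rps27rt was the member past 1.5-fold upward. A difference between the livers that follows GC content or length is lost in this step as well, for length only as far as its 4 bins resolve it. Short members such as Rpl38, at 457 bases, shared a bin with longer genes.

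The difference was also set against length and level. Spearman's coefficient was -0.21 with length and -0.17 with mean CPM over the 80 members, and -0.33 and -0.13 after the GC and length step. Over the 38 measured members with 50% or more unique windows the order was another, with -0.09 for GC content, -0.47 for length and -0.43 for mean CPM. Within small subunit genes rho with mean CPM was -0.49, and within large subunit genes 0.04. The 27 shortest messengers had a median of 0.21, as did the 205 protein-coding genes in the same range of length. After the GC and length step these medians were 0.13 and 0.17, so the step did not bring the shortest genes to 0.

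The pyrimidine tract at the annotated start was found in members on both sides of 0. The 25 measured members with a run of 7 or more in the RefSeq table had a median of 0.10 and ran from -0.49 to 0.50. The 35 measured members without such a run had a median of 0.15 and ran from -0.48 to 0.68. They include Rpl7a and Rpl34, where a pyrimidine run crosses an annotated start but begins more than 10 bases before it. The comparison therefore does not separate members with a tract from members without one. Rpl12, with a run of 7, and Rpl38, with a run of 10, stood at opposite ends of the measured large subunit genes.

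Other messengers of the translation machinery known for a pyrimidine tract lay on the same side as the members. Of 17 such genes 14 were above 0, with a median of 0.26. After the GC and length step 14 were above 0, with a median of 0.11. As counted, 0 passed 1.5-fold in either direction, where 9.11% of all measured genes were higher and 22.6% lower. Eif3e, a subunit of the initiation factor that binds the small subunit, had 53.4 CPM in WT and 79.6 in KO, 1.49-fold higher (1.37 to 1.62), and Eif3m was 1.29-fold higher (1.15 to 1.43). The elongation factor gene Eef1a1, with 3831 and 4897 CPM, was 1.28-fold higher (1.27 to 1.29). The elongation factor gene Eef2, with 3223 and 2161 CPM, was 1.49-fold lower (1.47 to 1.51) and Eif4b, an initiation factor that helps unwind messengers, 1.47-fold lower. Eef2 moved from -0.58 to 0.13 after the GC and length step, and Eif4b from -0.55 to -0.44. On the higher side Eif3e moved from 0.57 to 0.27, Eif3m from 0.36 to 0.11 and Eef1a1 from 0.35 to 0.09.

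Genes that make ribosomes lay on both sides. Of 32 rRNA processing and assembly genes 14 were above and 18 below 0, with a median of -0.02. The assembly factor gene Rrs1 had 1104 and 355 reads, 2.47-fold lower (2.19 to 2.79), and Rrp12 66 and 22 reads, 2.38-fold lower (1.45 to 4.05). Nmd3, the export adaptor of the large subunit, had 202 and 298 reads, 1.86-fold higher (1.55 to 2.24), and Gtpbp4 was 1.62-fold higher. After the GC and length step Rrs1 was at -0.98, while Rrp12 at -0.51, Nmd3 at 0.57 and Gtpbp4 at 0.39 were under 1.5-fold. Of 12 RNA polymerase I genes 7 were above 0, with a median of 0.17. Taf1d and Rrn3, initiation factors of that polymerase, were 1.62-fold (1.39 to 1.90) and 1.56-fold higher (0.38 and 0.53 after the step, under 1.5-fold), while Taf1c and Ubtf were 2.45-fold and 2.09-fold lower (-1.21 and -1.05, or -0.17 and -0.42 after the GC and length step).

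In the list of mTORC1 and its control of these messengers, 7 of 17 genes were above 0, with a median of -0.43 that was 0.07 after the GC and length step. Deptor, an inhibitor of mTOR, had 40.5 and 91.1 CPM, 2.25-fold higher (2.06 to 2.46), and the S6 kinase gene Rps6kb2 84 and 148 reads, 2.22-fold higher (1.69 to 2.94). Ddit4, another inhibitor of the complex, had 107 and 46.7 CPM, 2.30-fold lower (2.11 to 2.50), and Akt1 was 2.18-fold lower. After the step Ddit4 was at -0.97, whereas Akt1, at -0.27, was under 1.5-fold. Larp1 had 102 and 70.9 CPM, 1.44-fold lower, and was at 0.02 after the step. In the list of ribosome stalling and quality control 7 of 10 measured genes were above 0, with a median of 0.44. Abce1, which splits ribosomes, and Nemf, which marks stalled chains, were 1.53-fold and 1.54-fold higher, while Tcf25 was 1.93-fold and Zfp598, a ubiquitin ligase for collided ribosomes, 1.92-fold lower. After the GC and length step Zfp598 changed side to 0.10, Tcf25 was at -0.64, and Abce1 and Nemf were at 0.36 and 0.45, under 1.5-fold.

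The members were set beside 3 other families of many subunits. Mitochondrial ribosomal protein genes had a median of 0.21 over 77 measured genes, with 58 above 0. Nuclear-encoded respiratory chain subunits had a median of 0.34 over 77 genes, with 69 above 0, and proteasome subunits 0.23 over 37, with 29 above 0. After the GC and length step these medians were 0.20, 0.26 and 0.06, beside 0.02 for the members. Among mitochondrial ribosomal genes 6 were 1.5-fold or more higher and 0 lower, among respiratory chain genes 7 and 0, and among proteasome genes 0 and 2, where 9.11% of all measured genes were higher and 22.6% lower. Differences between the families were not tested, since each genotype is a single library.

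**Figure D5:**
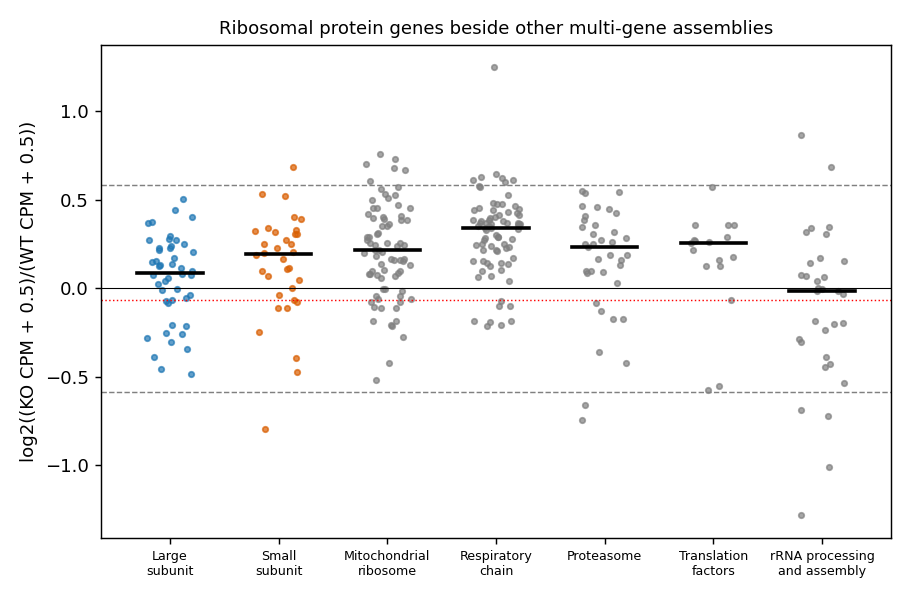
Log2 difference of KO and WT (y axis) for measured large and small subunit genes, the compared families and other lists of the translation machinery (x axis). Each point is a gene, black bars are medians, dashed lines mark 1.5-fold and the red dotted line is the median of all measured protein-coding genes, -0.07; the medians of 6 of the 7 groups are above 0, and rRNA processing and assembly genes are at -0.02.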

How the data were processed

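The deposited files carry FPKM in their names, but their values are whole numbers with unequal totals, so they were taken as raw counts. TopHat2, HTSeq 0.6.1 and GRCm38 are named in the submitters' processing notes. The sources used here do not state the annotation release, the strand setting or the filters. Each table held 52845 entries; 209 without an Ensembl gene (0.652% of counts in WT, 0.496% in KO) were left out of totals, and 233 genes not found in GENCODE M21 stayed in the totals only. CPM used all reads on genes. Genes with a mean of 1 CPM over both libraries counted as measured. Length and GC content are those of the principal transcript (annotated principal isoform, then CCDS, basic set, support level, length). With 1 library per group no test exists: ratios have exact Clopper-Pearson intervals conditional on the reads of both libraries, and calls are by size, 1.5-fold and 2-fold. The GC and length step took the median of protein-coding genes with 100 reads or more in 10 by 4 bins. Shared windows were exact 50-base matches to transcripts of other genes. Pseudogenes were matched by blastn at 90% identity over 50% of their length or more. Members, lists and the rule for named genes (the 4 highest and 4 lowest per subunit, the 3 most abundant per length, the role lists, both paralogues of each pair and the ends of other lists) were chosen with earlier results of these data known; Eef1a1, Larp1 and the pseudogene and overlap genes were named outside it, after their values were seen. Rps4l, listed with Rps4x, is not among the members and was not used here. Ratios were tested on simulated counts. Python 3.11.15, numpy 2.4.6, pandas 2.3.3, scipy 1.17.1 and, for TMM factors, edgeR 4.0.16 in R 4.3.3 were used. Some genes are not reported here.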

Additional observations from a re-analysis of the deposited data

How the results depend on the processing

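Values are given as the summed ratio of large and of small subunit genes, then their median log2 differences. With TMM scaling the ratios were 1.05 and 1.04. Without the 50 most abundant genes in the totals they were 1.11 and 1.09, the medians 0.19 and 0.30, and 4 members were 1.5-fold or more higher. This scaling moved the median of all measured genes by 0.10. Relative to that median, large subunit genes stayed at 0.15 and small subunit genes at 0.26. A change of totals shifts all genes by nearly the same amount, so these distances could not move and do not show stability. With the GC and length correction the ratios were 1.01 and 0.968 and the medians 0.0093 and 0.051, so the small subunit sum changed side. Without members that have near-identical copies the ratios were 1.04 and 1.04, and 0 members were 1.5-fold higher and 0 lower. With reads of processed pseudogenes added they were 1.02 and 1.01, and 0 members were 1.5-fold lower. Without a filter 2 members were 1.5-fold lower, Rps27a and Rpl39l. The planned change of the member list, adding ribosomal proteins with other names, is not reported here. The following were chosen after seeing the data. Without Rps2 and Rps27a the small subunit ratio was 1.07 and 0 members were 1.5-fold lower. Without members that overlap other genes 0 were 1.5-fold lower. Without members of either kind the ratios were 1.06 and 1.04, and 0 were 1.5-fold higher and 0 lower. Of 112 values under these and the other alternatives (median ratio scaling, protein-coding totals, other pseudocounts, a filter at 5 CPM), 86 stayed within counting error or within 1.5 times the count. Part of the 86 could not move, so the tally is no measure of stability. Summed ratios use no pseudocount or filter. Leaving out small subunit genes cannot change large subunit values, and leaving out members cannot raise a count of 0. The cause of the moved values was not tested, except that left-out members cannot be counted. Leaving out a replicate was not possible with 1 library per group. No paired analysis was possible because each genotype has a single pooled library. Depth limits Rpl3l, Rpl10l and Rpl39l, whose reads are too few for a comparison. The reads of Rpl24 were also too few, but there depth cannot be told apart from overlap with another gene and from pseudogene copies.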
